A study of Mus musculus with 34 samples.

Results

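Collagens are the triple-helical proteins of the extracellular matrix. The collagen genes described here are the protein-coding genes whose symbol is Col, a number, the letter a and a number. There were 44 of them among 30750 genes, and all 44 stood in each of the 3 tables of read counts. The rule uses names only, so no measured value chose a member. A filter on low counts left 20 of the 44 for testing in the 96 h cultures, 34 in the 10 d cultures and 30 in the tumors. The other members are given by their levels.

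The libraries come from mouse models of SCLC (small cell lung cancer, a tumor of neuroendocrine cells) exposed to bomedemstat (BOM), which inhibits the histone demethylase LSD1. The first table holds 96 h cultures of the lines RP-116, RP-48 and G8545, each with DMSO and with BOM, at 1 library per line and treatment. The second holds 10 d cultures of the line RP-48OVA-LLO190 with DMSO in 3 libraries and BOM in 2, and the same pair with the cytokine interferon gamma (IFNg) over the last 48 h, in 3 libraries with DMSO and 2 with BOM. The third holds whole flank tumors that RP-48OVA-LLO190 formed in immunocompetent mice, labelled 16 d: 5 given vehicle, 4 given BOM, 5 given anti-PD1 (an antibody that blocks an inhibitory receptor of T cells) and 4 given both agents. All 10 d cultures and all tumors share the one line, and the strain, age and sex of the hosts are not given in the sources used here. Nothing in the labels tells if each 10 d library had a culture of its own, and the p-values at 10 d therefore measure only spread between samples, which may be technical. Depth per library, as total counts, was 5.90 to 9.04 M in the 10 d table and 8.71 to 9.97 M in the 96 h table. Tumor libraries had 5.64 to 13.2 M, apart from vehicle tumor 1 with 82.2 M. Vehicle tumors 1 and 2 stand apart from the other 3 vehicle tumors in several collagens, and tumor results that rest on them are given with and without them. Neuroendocrine markers (12 of 12 with counts in each group) summed to 3424 to 4024 CPM (counts per 1e6 counts of the library) in the 10 d DMSO cultures and to 3249.9 to 3953 CPM in the vehicle tumors.

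A collagen molecule is a rope of 3 alpha chains, each made from its own gene, that fold together in the endoplasmic reticulum after hydroxylation of prolines and lysines. Fibrillar collagens (types I, II, III, V and XI) build the cables of connective tissue, bone and cartilage, and in most solid tumors fibroblasts make the bulk of them. The fibrillar class counted here also holds Col24a1 and Col27a1. Type IV collagens form the sheet-like network of basement membranes, under epithelia and around vessels. Type VI makes beaded microfilaments next to cells. FACIT collagens sit on the surface of fibrils, transmembrane collagens span the cell membrane, and types XV and XVIII (multiplexins) join basement membranes to the tissue around them. In SCLC the matrix around the cells is known for its effects on adhesion and drug response.

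The results turn on 2 gene pairs whose chains are built into the same molecule, so their promoters are shown, as RefSeq gives them for the mouse build GRCm38.p6, from 250 bases before to 50 after the start of transcription. Col4a1 and Col4a2 encode the chains of the most widespread basement membrane collagen. They lie head to head (mm10, chromosome 8, 11198423 to 11312826, minus strand, and chromosome 8, 11312805 to 11449287, plus strand), share 22 annotated bases at their starts, and their promoter windows share 78 bases. Col6a1 (chromosome 10, 76708792 to 76726168, minus strand) and Col6a2 (chromosome 10, 76595762 to 76623630, minus strand) encode chains of type VI collagen and follow each other on the same strand. Capitals mark GC boxes (GGGCGG or its reverse complement CCGCCC) and CCAAT boxes (CCAAT or ATTGG), searched on both strands.
Col4a1 promoter, chr8:11312777-11313076, minus strand: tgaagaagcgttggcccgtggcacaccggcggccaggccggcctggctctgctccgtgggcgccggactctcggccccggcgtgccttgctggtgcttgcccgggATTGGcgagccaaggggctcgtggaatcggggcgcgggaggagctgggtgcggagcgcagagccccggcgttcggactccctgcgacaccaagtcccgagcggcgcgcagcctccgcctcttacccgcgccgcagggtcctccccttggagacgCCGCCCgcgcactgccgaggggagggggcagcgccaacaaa
Col4a2 promoter, chr8:11312555-11312854, plus strand: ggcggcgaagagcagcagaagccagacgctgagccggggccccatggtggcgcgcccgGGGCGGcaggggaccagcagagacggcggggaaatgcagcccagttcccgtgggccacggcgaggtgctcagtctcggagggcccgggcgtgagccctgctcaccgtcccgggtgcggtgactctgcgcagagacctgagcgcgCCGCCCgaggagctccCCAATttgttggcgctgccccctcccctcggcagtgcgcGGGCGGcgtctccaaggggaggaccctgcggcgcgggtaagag
Col6a1 promoter, chr10:76725995-76726294, minus strand: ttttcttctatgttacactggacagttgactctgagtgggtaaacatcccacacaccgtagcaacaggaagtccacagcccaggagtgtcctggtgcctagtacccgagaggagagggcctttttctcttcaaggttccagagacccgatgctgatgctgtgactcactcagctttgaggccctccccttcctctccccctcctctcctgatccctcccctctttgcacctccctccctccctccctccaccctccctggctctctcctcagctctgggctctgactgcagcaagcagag
Col6a2 promoter (window 1), chr10:76623355-76623654, minus strand: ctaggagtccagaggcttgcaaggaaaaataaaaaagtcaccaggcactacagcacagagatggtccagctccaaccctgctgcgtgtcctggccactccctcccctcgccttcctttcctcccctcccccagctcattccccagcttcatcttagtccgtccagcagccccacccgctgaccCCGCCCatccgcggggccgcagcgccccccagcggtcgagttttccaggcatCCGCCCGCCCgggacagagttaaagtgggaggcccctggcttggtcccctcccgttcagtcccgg
Col6a2 promoter (window 2), chr10:76623581-76623880, minus strand: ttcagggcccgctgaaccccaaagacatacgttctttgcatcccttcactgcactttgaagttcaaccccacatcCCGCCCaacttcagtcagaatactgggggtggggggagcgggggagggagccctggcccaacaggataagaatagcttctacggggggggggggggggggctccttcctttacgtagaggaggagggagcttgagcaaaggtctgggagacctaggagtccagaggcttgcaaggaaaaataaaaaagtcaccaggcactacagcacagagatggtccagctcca
The Col4a1 window held 1 GC box and 1 CCAAT box, and the Col4a2 window held 3 and 1. The Col6a1 window held neither set of letters. The first Col6a2 window held 3 GC boxes, of which a pair overlap, and the second 1. RefSeq windows were matched by symbol for 35 of the 44 members (38 windows of 300 bases). Those not matched were Col12a1, Col14a1, Col1a1, Col22a1, Col26a1, Col2a1, Col4a3, Col5a2 and Col9a3. A GC box stood in 60.5% of the 38 windows and in 35.7% of all 32851 RefSeq windows, a CCAAT box in 34.2% and 37.4%. The TATA box letters TATAAA stood in 13.2% and 13.6%, and TGGGAA, the core letters bound by the Notch pathway factor RBPJ, in 31.6% and 25.6%. A match describes letters and is no evidence of binding.

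In the 10 d DMSO cultures type IV collagen led. Per-length values are CPM per kilobase of all annotated exon bases of a gene, which can exceed the length of any 1 transcript. They are therefore not molar amounts. Per length, the 10 d DMSO cultures held Col4a2 at 29.7 ± 3.27 (SD, n = 3) and Col4a1 at 18.9 ± 2.02. Next came Col6a1 at 8.42 ± 0.0544, the transmembrane collagen Col23a1 at 3.65 ± 2.28, the short-chain network collagens Col8a2 at 2.84 and Col8a1 at 2.29, the minor fibrillar chain Col11a2 at 2.25 and Col6a2 at 1.95. Basement membrane collagens made up 59.8 ± 3.19% of the per-length collagen signal and fibrillar collagens 4.99 ± 0.729%. All collagens together came to 563 ± 53.3 CPM of the library (SD, n = 3). At the read level Col1a1 and Col1a2, the chains of the most abundant fibrillar collagen of the body, held 0.419, 2.29 and 2.54 CPM and 0, 1.15 and 0.509 CPM in the DMSO libraries.

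**Figure D1:**
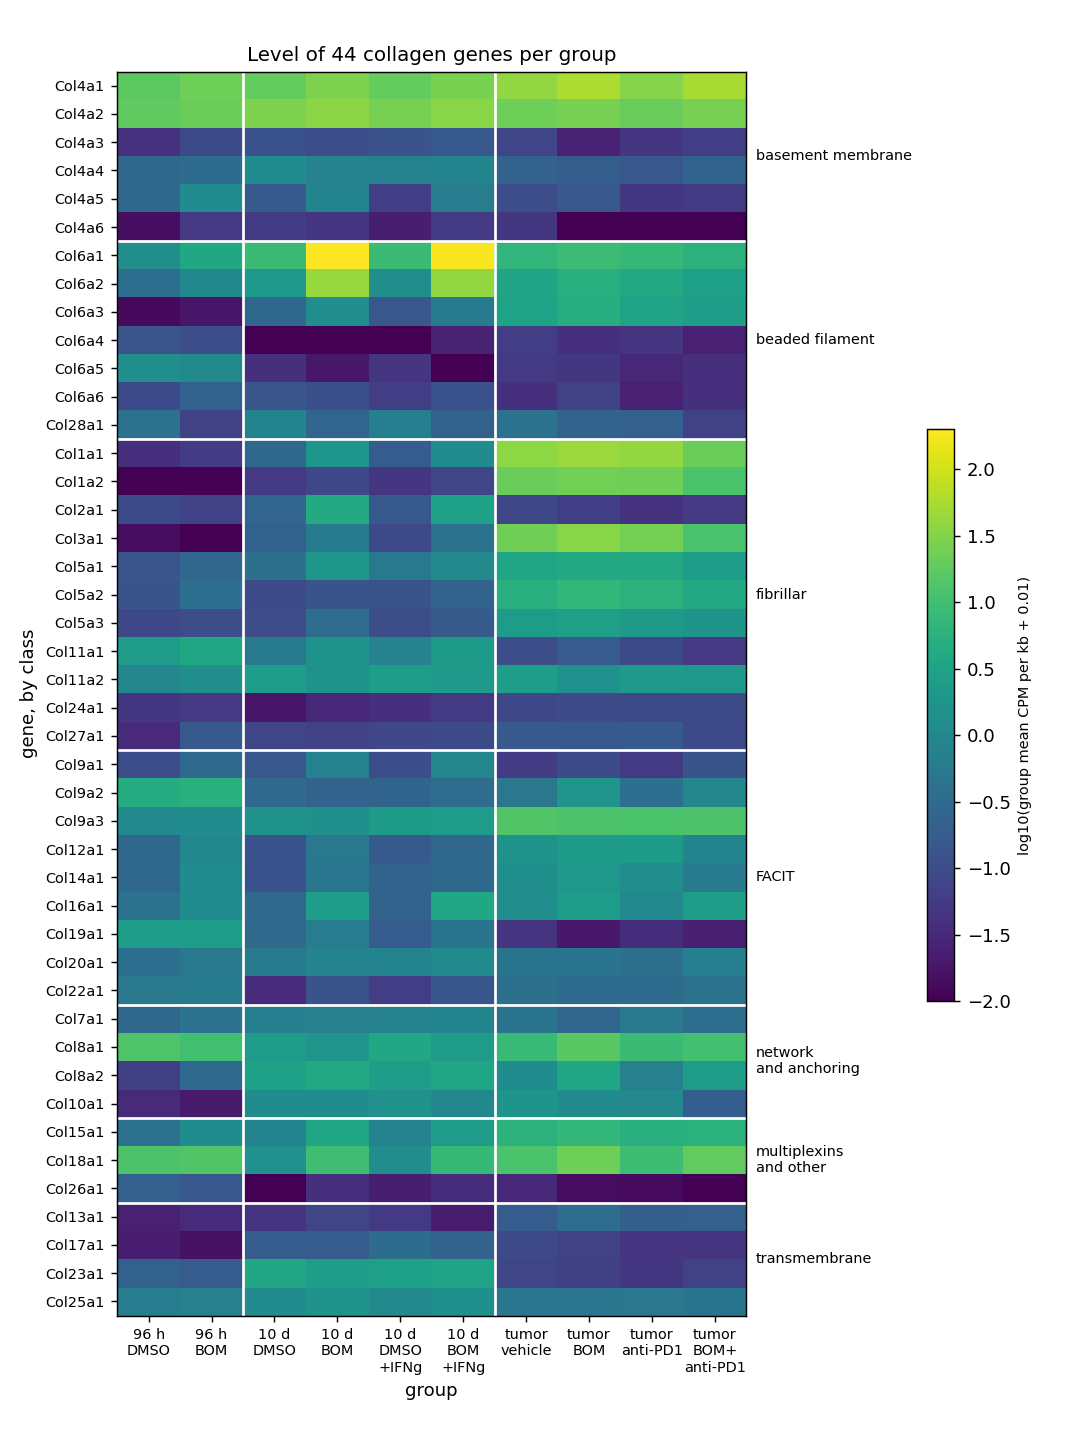
Mean level per length of each of the 44 collagen genes (rows, by class) in each of the 10 groups (columns), as log10 of CPM per kilobase plus 0.01. Col4a1 and Col4a2 are high in every column, and Col1a1, Col1a2 and Col3a1 are highest in the tumor columns.

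The 3 lines of the 96 h table differed from each other in which collagens they held. Col4a1 was present in all, at 112 CPM in RP-116, 174 in RP-48 and 88.3 in G8545 with DMSO, and Col4a2 at 113, 139 and 96.4. Col18a1, the precursor of the fragment endostatin, stood at 160.4 CPM in RP-116 and 102 in RP-48 but at 1.61 in G8545. The FACIT collagen Col19a1 stood at 52.6 CPM in RP-116 and at 0.216 and 0.10 in the other lines. Col6a5 (type VI) stood at 38.8 CPM in RP-116 and had 0 counts in the DMSO libraries of the other lines. The fibrillar chain Col11a1 ran the other way, with 1.95 CPM in RP-116, 21.6 in RP-48 and 69 in G8545. Col8a1 stood at 213, 20.6 and 75.6 CPM, and the FACIT collagen Col9a2 at 27, 5.28 and 10.9. Per length, Col8a1 (27.2 CPM per kilobase) and Col18a1 (22.8) lay above Col4a2 (17) and Col4a1 (15) in RP-116 with DMSO. In RP-48 and G8545 with DMSO the type IV chains lay above both. Each line is 1 library per treatment, so differences between lines have no replicate check. In the 3 DMSO libraries Col1a1 was at most 0.23 CPM and Col1a2 had 0 counts.

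Whole tumors of the same line held a different mix. In the vehicle tumors Col4a1 was again highest per length (40.2 ± 8.23 CPM per kilobase, SD, n = 5), but Col1a1 (36.8 ± 12.3) and Col3a1 (23.7 ± 7.07), the main fibrillar chains of soft connective tissue, came next. They were followed by Col4a2 (22.9 ± 3.26), Col1a2 (20.8 ± 7.65), the FACIT collagen Col9a3 (13.6 ± 1.48), Col18a1 (12 ± 4.35) and Col8a1 (8.34 ± 2.61). Fibrillar collagens made up 42.5 ± 5.79% of the per-length collagen signal in vehicle tumors, against 4.99 ± 0.729% in the 10 d DMSO cultures, and basement membrane collagens 28.9 ± 3.95% against 59.8 ± 3.19%. The collagen total was 1713 ± 393 CPM in the vehicle tumors (SD, n = 5). The kit named in the labels records no strand, and the strand setting of the counting is not given. Col9a3 shares 6.07% of its exon bases with Tcfl5 on the opposite strand. Its level is therefore less certain than those of the other members listed here. Culture or tumor, the count table and the RNA selection (total RNA for the 10 d cultures, polyadenylated RNA for the tumors) change together and cannot be told apart, so these levels were not tested against each other. In bulk samples, more cells of a type and more RNA per cell cannot be told apart either.

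**Figure D2:**
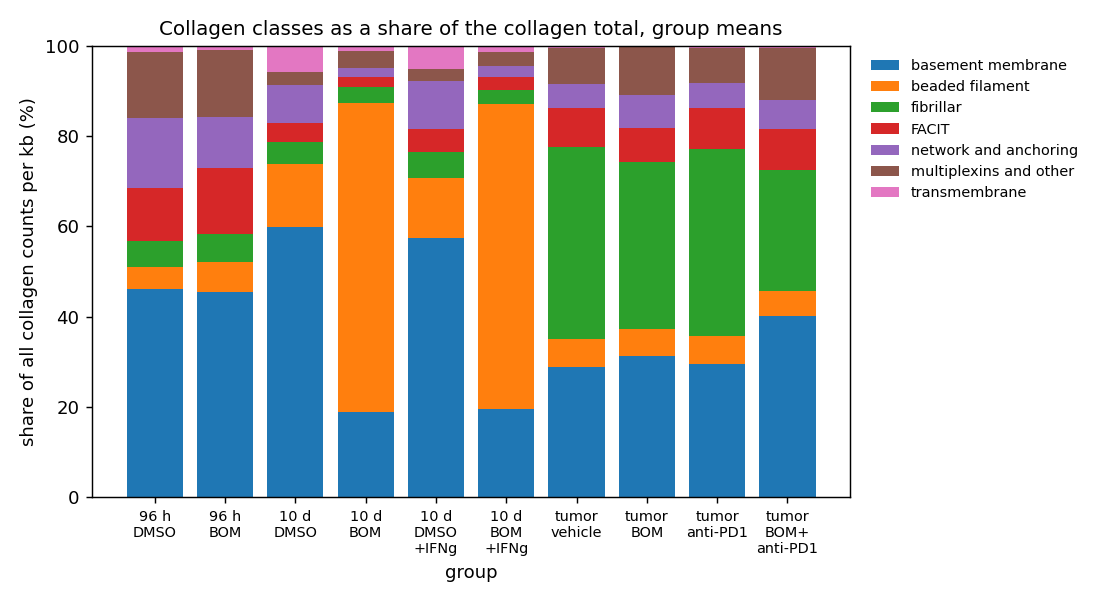
Share of the per-length collagen signal in each collagen class (stacked bars, percent, group means) for the 10 groups. Basement membrane collagens fill 59.8% of the 10 d DMSO bar, beaded filament collagens 68.5% of the 10 d BOM bar and fibrillar collagens 42.5% of the vehicle tumor bar.

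Of the 36 collagens with at least 1 CPM in the vehicle tumors or the 10 d DMSO cultures, 17 were higher in every vehicle tumor than in every DMSO culture and 9 were lower in every one. Over all genes these shares were 42.1% and 29.7% with plain CPM. A lack of overlap between culture and tumor was therefore common, and the members' counts lie near these shares. The balance over all genes depended on the scaling. By TMM, the scaling of the edgeR tests, 6022 of 16383 genes were higher and 5593 lower, with 16 and 10 of 37 collagens. Without the transcripts Gm26917 and Gm42418, 5507 of 16571 genes were higher and 6187 lower, again with 16 and 10 of 37 collagens. By size, 9 of the 36 collagens were at least 10-fold higher without overlap, where 5.75% of all genes were (a limit chosen after the values were seen). These 9 were Col1a2 (469-fold, from 10 counts in the 3 DMSO libraries), Col1a1 (138-fold), Col3a1 (116-fold), Col5a2 (58.4-fold) and Col5a3 (25.5-fold), all fibrillar, the FACIT collagens Col22a1 (17.1-fold, from 4 counts), Col12a1 (13.5-fold) and Col14a1 (12.5-fold), and Col6a3 (12-fold). Of the 9, Col1a2, Col5a2, Col5a3, Col14a1 and Col22a1 had a mean under 1 CPM in the cultures and entered the 36 only through the tumors. That they were counted therefore rests on the groups compared. Col1a2 ran from 173 to 415 CPM over the vehicle tumors. Of the leading culture collagens, Col4a1 was 2.12 times and Col4a2 0.772 times the culture level, and Col6a1 was 0.803 times. These ratios use plain CPM and were not recomputed with other scaling.

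Of the 9 collagens lower in the tumors, Col23a1 differed most in ratio. It held 6.14, 25.9 and 30.9 CPM in the 10 d DMSO cultures and 0.328, 0.228, 0.532, 0.613 and 0.275 in the vehicle tumors. Col4a4, a chain of the specialised basement membrane of kidney and lung, held 11.7, 14.4 and 12.2 CPM against 1.81, 1.83, 2.13, 3.07 and 2.47. Its neighbour Col4a3 held 2.09, 0.164 and 1.02 against 0.45, 0.304, 1.06, 1.53 and 0.137, values that overlap. Col4a3 shares 5.65% of its exon bases with C430014B12Rik on the opposite strand, so its level is less certain too. Col25a1, a transmembrane collagen of neurons, held 14.5, 15.7 and 15.9 CPM against 7.08, 5.63, 4.97, 6.28 and 6.87. The other members lower in every tumor were Col19a1 (0.115 times the culture level), Col11a1 (0.163), Col2a1 (0.32), Col8a2 (0.436), Col28a1 (0.466) and Col7a1 (0.627), the anchoring fibril collagen of skin. Of these 9, Col2a1, Col19a1 and Col23a1 had a mean under 1 CPM in the tumors and were counted only through the cultures. The 96 h DMSO cultures were made from polyadenylated RNA like the tumors but are other lines. Against them, 20 of 36 collagens were higher in every vehicle tumor, 11 of them at least 10-fold, and 3 were lower (Col11a1, Col9a2 and Col23a1). Of the 11, Col1a1, Col1a2, Col3a1, Col5a3, Col6a3, Col8a2 and Col10a1 had a mean under 1 CPM in those cultures. They were counted only through the tumors. Of all 15064 genes in that comparison, 3621 were higher in every vehicle tumor, 841 of them at least 10-fold, and 2123 were lower. Macrophage markers summed to 6.7 to 13.8 CPM in the 10 d DMSO cultures, with Adgre1, C1qa, C1qb, C1qc and Lyz2 of the 8 at 0 counts, and to 518 to 1491 in the vehicle tumors. Fibroblast markers summed to 115 to 119 and 198 to 308 CPM (9 and 12 of 12 with counts, with Dpt, Mfap5 and Twist2 at 0 in the cultures). Endothelial markers summed to 19 to 23.9 and 103 to 152 CPM (11 and 12 of 12, with Tie1 at 0 in the cultures).

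In the 10 d cultures the chains of type VI collagen, Col6a1 and Col6a2, rose most with BOM. Log2 changes are given ± SE. Of the 34 collagens tested, 16 were higher with BOM than with DMSO and 1 was lower (edgeR quasi-likelihood test, adjusted p under 0.05), where 12.1% of all genes tested were higher and 8.25% lower. Of those called, Col4a5, Col9a1 and Col14a1 reached the count filter only with BOM libraries, and Col28a1 only with libraries without BOM. That these genes were tested therefore rests on the groups compared. The median log2 fold change of the 34 was 0.81, and that of all genes -0.01. With scaling by library size alone, which moved the median of all genes by 0.07 on the log2 scale, 70.8% of all called genes were higher in place of 59.4%, and 17 collagens were higher and 1 lower. Col6a1 held 36.7, 37.2 and 36.8 CPM in the DMSO libraries and 989.5 and 769 in the BOM libraries, a log2 change of 4.5 ± 0.13, adjusted p = 9.65e-13 by edgeR. Col6a2 held 14.8, 18.8 and 15.1 against 393 and 339 CPM, a log2 change of 4.43 ± 0.19, adjusted p = 3.17e-11 by edgeR. Col6a3, the long chain that completes the type VI molecule, held 0.419, 3.6 and 5.26 against 9.9 and 20.1 CPM, and its log2 change of 2.25 ± 0.62, adjusted p = 0.0146 lost the call by DESeq2 (adjusted p = 0.213) and without the second BOM library (0.227). Both BOM libraries lay above all 3 DMSO libraries in each of the 3 chains. The share of beaded filament collagens in the per-length collagen signal went from 14 ± 1.28% to 68.5 ± 4.39%, and the collagen total from 563 ± 53.3 to 2063 ± 157 CPM (SD, n = 3 and n = 2). The lower member, Col28a1, belongs to the same class and held 3.63, 5.24 and 4.07 CPM with DMSO and 0.974 and 1.37 with BOM (-1.92 ± 0.43, adjusted p = 0.00369 by edgeR). That call was lost without the first BOM library (0.0652).

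**Figure D3:**
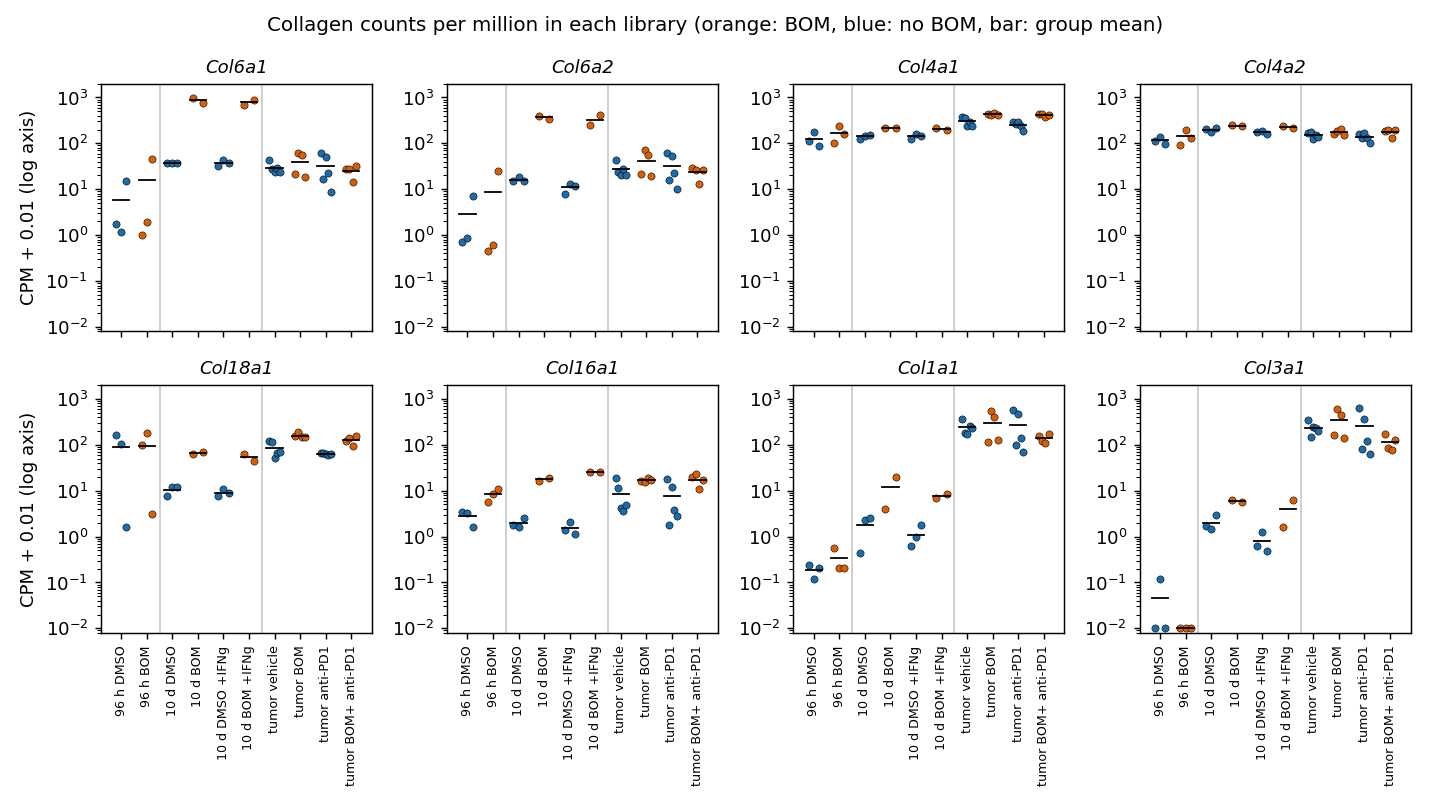
CPM (log axis, plus 0.01) in every library for 8 collagens, with BOM libraries in orange, libraries without BOM in blue and a bar at each group mean. Col6a1 and Col6a2 reach 989.5 and 393 CPM in the first 10 d BOM library, above every tumor, while Col1a1 and Col3a1 are highest in the tumors.

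Among the fibrillar collagens 5 of 9 tested were higher with BOM in the 10 d cultures and none lower. Col2a1, the main collagen of cartilage, held 1.95, 2.29 and 2.37 CPM with DMSO and 39.8 and 40.4 with BOM, a log2 change of 4.11 ± 0.38, adjusted p = 3.92e-07 by edgeR. Col5a1, a regulator of fibril diameter, held 1.26, 3.44 and 5.09 against 13.5 and 19.4 CPM (2.29 ± 0.40, adjusted p = 0.000448 by edgeR), and Col11a1 8.52, 8.51 and 5.26 against 20.4 and 20.3 (1.38 ± 0.23, adjusted p = 0.000256 by edgeR). In all 3 genes the groups did not overlap. Col1a1 held 0.419, 2.29 and 2.54 CPM with DMSO and 3.89 and 20.3 with BOM. Its edgeR log2 fold change of 2.77 ± 0.60, adjusted p = 0.00281 rested on the second BOM library, without which it was 1.09 (adjusted p = 0.34). Col3a1 held 1.68, 1.47 and 2.88 against 6.33 and 5.79 CPM (1.53 ± 0.50, adjusted p = 0.0366 by edgeR), a call lost without any of 4 libraries (DMSO 1, DMSO 2, BOM 1 or BOM 2; adjusted p = 0.0825 to 0.161). Col1a2, which pairs with Col1a1 in type I collagen, held 0, 1.15 and 0.509 against 0.487 and 1.37 CPM and did not pass the count filter. Chondrocyte markers moved with Col2a1: they summed to 7.53 to 8.93 CPM with DMSO (6 of 6 with counts) and to 24 to 26.1 with BOM (5 of 6, Matn1 at 0). Of the 3 chondrocyte markers tested, Acan (log2 3.31) and Hapln1 (1.38) were higher, and their part in the result was not tested.

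Of the basement membrane collagens 2 of 5 tested were higher with BOM. Col4a1 held 125, 143 and 155 CPM with DMSO and 218 and 216 with BOM, a log2 change of 0.55 ± 0.11, adjusted p = 0.00143 by edgeR, with no overlap. Col4a5, an X-linked chain, held 0.698, 1.96 and 0.509 against 5.68 and 6.09 CPM (2.4 ± 0.56, adjusted p = 0.00509 by edgeR). Its neighbour Col4a6 held at most 0.848 CPM in any 10 d library. Col4a2, at 203, 173 and 214 against 248 and 235 CPM, had a log2 change of 0.23 ± 0.10, adjusted p = 0.111 and did not pass. Both multiplexins tested were higher: Col18a1 held 7.82, 12 and 11.9 against 63.4 and 69.2 CPM (2.6 ± 0.19, adjusted p = 1.96e-08 by edgeR) and Col15a1 5.3, 5.08 and 6.27 against 25.3 and 17.2 (1.87 ± 0.23, adjusted p = 9.15e-06 by edgeR). Of the FACIT collagens 4 of 7 tested were higher: Col16a1 (1.81, 1.64 and 2.54 against 16.4 and 18.9 CPM, log2 3.07 ± 0.26), Col9a1 (2.42), Col12a1 (2.14) and Col14a1 (2.0). The last 3 each lost the call without 1 BOM library (the second for Col9a1 at an adjusted p of 0.0635 and for Col12a1 at 0.0903, the first for Col14a1 at 0.128, all by edgeR). None of the 4 network and anchoring collagens and none of the 3 transmembrane collagens tested passed. Col23a1 was low in the first library of each 10 d group: 6.14, 25.9 and 30.9 CPM with DMSO, 7.63 and 20.6 with BOM, 2.84, 21.9 and 23.5 with DMSO and IFNg, and 6.6 and 28.1 with BOM and IFNg. Of the 16 higher collagens, 10 kept the call under all 17 alternatives: Col2a1, Col4a1, Col4a5, Col5a1, Col6a1, Col6a2, Col11a1, Col15a1, Col16a1 and Col18a1. Col4a5 is among them although it reached the count filter only with BOM libraries.

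Genes that serve collagen moved in both directions in the same comparison, where 12.1% of all genes tested were higher and 8.25% lower. The counts in these small lists are read against those shares. Of 18 modification and folding genes tested 5 were higher with BOM, among them the prolyl 3-hydroxylase P3h1 (log2 0.78 ± 0.20), and 3 lower: the collagen galactosyltransferase Colgalt1 (-0.68 ± 0.10) and the prolyl 4-hydroxylase subunits P4ha2 (-2.24 ± 0.44) and P4ha1 (-0.95 ± 0.21). Of 10 processing and crosslinking genes 1 was higher, the procollagen peptidase Adamts14 (1.76 ± 0.44), and the procollagen C-proteinases Tll1 (-1.03 ± 0.13) and Bmp1 (-0.51 ± 0.13) were lower. Of 6 degradation genes 4 were higher: the gelatinase Mmp2 (2.69 ± 0.29), the membrane-bound protease Mmp16 (0.86 ± 0.12) and the protease inhibitors Timp2 (2.7 ± 0.15) and Timp3 (2.25 ± 0.41). Of 8 collagen receptors 3 were higher: the integrin chains Itga1 (1.72 ± 0.22), Itga2 (1.1 ± 0.37) and Itgb1 (0.34 ± 0.08). Of 19 other matrix genes 12 were higher and none lower, with a median log2 fold change of 1.34, among them the collagen-binding protein Sparc (3.49 ± 0.28), thrombospondin Thbs1 (3.64 ± 0.43), the basement membrane proteoglycan Hspg2 (1.94 ± 0.25) and elastin, Eln (1.31 ± 0.15).

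Summed marker levels of stromal cells in those cultures were as follows. The 12 fibroblast markers summed to 115 to 119 CPM with DMSO and 107 to 109.7 with BOM, with Dpt, Mfap5 and Twist2 at 0 counts in both groups. Of 6 tested, 3 were higher with BOM (Pdgfrb, log2 2.58; Lum, 2.56; Pdgfra, 1.16) and Fbln1 was lower (-0.73). The 12 endothelial markers summed to 19 to 23.9 CPM with DMSO and 47.8 to 63 with BOM, where Cdh5, Cldn5 and Tie1 were at 0 counts. Of 7 tested, Kdr (2.08) and Ptprb (2.07) were higher. Of all genes 12.1% were higher and 8.25% lower. The part of these genes in the collagen differences was not tested.

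With IFNg present in both arms, BOM changed nearly as many collagens. Of the 34 tested, 15 were higher with BOM and IFNg than with DMSO and IFNg and 1 was lower, against 13% and 10.1% of all genes, and the median log2 fold change was 0.64 (all genes, -0.01). Scaling by library size alone gave 68.1% of called genes higher in place of 56.3%, and the same counts of collagens. Col6a1 held 32.9, 43.6 and 36.7 CPM without BOM and 691 and 901 with it, a log2 change of 4.34 ± 0.13, adjusted p = 1.62e-12 by edgeR, and Col6a2 8.07, 13.3 and 11.5 against 253 and 408 (4.86 ± 0.20, adjusted p = 1.86e-11 by edgeR). Col2a1 held 1.79, 1.44 and 0.79 against 13 and 39.5 CPM (4.24 ± 0.41), Col16a1 1.35, 2.08 and 1.11 against 25 and 25.8 (4.0 ± 0.26), Col4a5 0.448, 0.639 and 0 against 2.58 and 6.19 (3.51 ± 0.67) and Col18a1 7.77, 10.7 and 8.69 against 62.5 and 44.7 (2.49 ± 0.19). The groups did not overlap in these 6 genes. Also higher were Col9a1 (3.21), Col1a1 (2.73), Col3a1 (2.32), Col6a3 (2.14), Col15a1 (1.45), Col11a1 (1.4), Col19a1 (1.36), Col4a1 (0.48) and Col4a2 (0.30), and Col28a1 was lower (-1.77). As above, Col4a5 and Col9a1 reached the count filter only with BOM libraries, and Col28a1 only with libraries without BOM. The call of Col3a1 was lost without the second library of BOM and IFNg (adjusted p = 0.444 by edgeR). That of Col6a3 was lost by DESeq2 (0.24) and without the same library (0.492) or any 1 of the 3 libraries of DMSO and IFNg (0.0511 to 0.0893). That of Col28a1 was lost without the first library of BOM and IFNg (0.0607), that of Col4a2 without any of 3 libraries (DMSO with IFNg 3, or either BOM with IFNg library; up to 0.184) and that of Col19a1 under 9 of 17 alternatives (up to 0.17).

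No collagen passed for IFNg itself. With IFNg against DMSO 0 of 34 passed by edgeR and by DESeq2, with 4 at an unadjusted p under 0.05, where 2.27% of all genes passed. The largest class, basement membrane collagen, made up 57.4 ± 1.78% of the per-length signal in those libraries. Same-numbered libraries of these 2 groups are treated as pairs in an alternative, and with that number blocked the network collagen Col8a1 was higher with IFNg (log2 0.70, adjusted p = 0.00897 by edgeR). Its values were 15.2, 18.7 and 19.8 CPM with DMSO and 22, 34 and 32.4 with DMSO and IFNg. With BOM and IFNg against BOM 0 of 34 passed by either tool, with 2 at an unadjusted p under 0.05, where 2.06% of all genes passed. No collagen passed the test of the difference between the BOM effects with and without IFNg (0 of all genes by edgeR with 725 at an unadjusted p under 0.05, 4 of them collagens, and 13 genes by DESeq2, none of them collagens).

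At 96 h no gene of 13333 passed between BOM and DMSO with the line as a block, so none of the 20 collagens tested did. At an unadjusted p under 0.05 there were 812 genes and 7 collagens, and DESeq2 called 59 genes and no collagen. The members' median log2 fold change was 0.50, that of all genes -0.01. Col16a1 was higher with BOM in each line, at 3.44 against 5.78 CPM in RP-116, 3.24 against 8.33 in RP-48 and 1.61 against 10.7 in G8545 (log2 1.56 ± 0.40, adjusted p = 0.439 by edgeR). In G8545, the one line of the 3 with over 2 CPM of Col6a1, that gene held 14.9 CPM with DMSO and 45.7 with BOM, and Col6a2 7.03 against 24.5. In RP-48 the 2 genes held 1.19 against 1.91 and 0.863 against 0.602 CPM, and in RP-116 1.72 against 1.02 and 0.689 against 0.453. G8545 also held Col4a5 at 4.72 against 23.1 CPM, Col12a1 at 11.4 against 44.3 and Col14a1 at 4.22 against 23.2. In RP-48 these 3 genes held 0.863 against 1, 0.755 against 1.71 and 1.62 against 1.4 CPM. In RP-116 they held 0 against 0, 0.23 against 0.566 and 0 against 0.113. In RP-116 Col19a1 held 52.6 and 52.5 CPM. Col18a1 held 160.4 against 98.9 CPM in RP-116, 102 against 185 in RP-48 and 1.61 against 3.02 in G8545, lower with BOM in the first line and higher in the other two. Each of these pairs is 1 library against 1.

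In the tumors Col4a1, Col18a1 and Col9a2 were higher with BOM, and the members passed at about the share of all genes. Of 30 tested, 3 were higher in BOM than in vehicle tumors and 1 lower by edgeR, against 5.9% and 8.63% of all genes. The members' median log2 fold change was 0.29 (all genes, -0.02). Col4a1 held 369, 359.7, 242, 285 and 243 CPM in the vehicle tumors and 446, 420.3, 453 and 424 in the BOM tumors, a log2 change of 0.52 ± 0.13, adjusted p = 0.0151 by edgeR. Col18a1 held 119, 115, 51.4, 67.7 and 68.9 against 153, 185, 146 and 150.3 CPM (0.88 ± 0.19, adjusted p = 0.00656 by edgeR) and Col9a2 3.43, 1.67, 0.709, 1.07 and 0.825 against 4.86, 6.79, 4.9 and 5.34 (1.64 ± 0.41, adjusted p = 0.0136 by edgeR). Every BOM tumor lay above every vehicle tumor in these 3 genes, and all 3 kept the call under the 26 alternatives run. Col9a2 reached the count filter only with the tumors given BOM. Col11a2 held 13.2, 14.1, 18.6, 20.5 and 17.2 against 11.2, 8.89, 10.9 and 9.66 CPM (-0.72 ± 0.22, adjusted p = 0.0353 by edgeR) and lost the call under 9 of them (adjusted p up to 0.0973). Col4a2, the partner chain of Col4a1, held 171, 173, 123, 153 and 139 against 161, 189.6, 202 and 148 CPM (log2 0.19 ± 0.15) and did not pass.

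Vehicle tumors 1 and 2 lay nearer to the BOM tumors than the other 3 did in several collagens. Col16a1 held 18.7, 11.2, 4.08, 3.53 and 4.95 CPM in the vehicle tumors and 16, 15.3, 18.5 and 16.8 in the BOM tumors. Col8a2 held 10.5, 9.66, 3.02, 1.99 and 2.61 against 15.4, 16.2, 15 and 14.5 CPM and Col8a1 93.9, 79.5, 51.3, 56.1 and 46.1 against 91.2, 156, 172 and 82.5. Without these 2 tumors the log2 change was 1.97 for Col16a1, 1.29 for Col8a1 and 2.57 for Col8a2, and 7 collagens passed by edgeR in place of 4. The 2 tumors were singled out by values of these libraries, so the gain in these genes follows from the choice and is no test of them. Col18a1 then had a log2 change of 1.33, Col9a2 of 2.62 and Col4a1 of 0.75, in the same direction as with all tumors. The fibrillar chains did not pass with or without them: Col1a1 held 369.6, 179.8, 168, 256 and 234 CPM with vehicle and 115, 530.3, 395 and 129 with BOM, and Col3a1 339.6, 151, 244, 227 and 201 against 159, 600.5, 454 and 143. In both genes the 4 BOM tumors spanned the range of the vehicle tumors.

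Endothelial markers, of a cell type rich in type IV and type XVIII collagen, summed to 103 to 152 CPM in vehicle and 84.8 to 200.01 in BOM tumors, and 0 of 12 passed. Fibroblast markers summed to 198 to 308 and 179 to 323 CPM (0 of 11 tested passed), and pericyte and smooth muscle markers to 224 to 285 and 226 to 351 (0 of 7). Of the 12 neuroendocrine markers 2 were higher and 9 lower with BOM, against 5.9% and 8.63% of all genes. Their sum was 3249.9 to 3953 CPM with vehicle and 3079.7 to 3581 with BOM. The keratinocyte marker list summed to 365 to 490.5 and 542 to 618 CPM, with Krt1 at 0 and Dsp, a desmosome gene of many epithelia, higher (log2 0.45). Skeletal muscle markers reached 1129 CPM in BOM tumor 2 and 132 in vehicle tumor 1, where the group medians were 4.70 and 8.74. The part of these markers in the collagen differences was not tested.

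With both agents 6 collagens differed from anti-PD1 alone. Of 30 tested, 5 were higher with BOM plus anti-PD1 and 1 lower by edgeR, against 15.8% and 16.6% of all genes, and the members' median was -0.28 (all genes, -0.01). Col4a1 held 286, 259, 288, 235 and 183 CPM with anti-PD1 and 431, 431, 368 and 425 with both agents, a log2 change of 0.70 ± 0.13, adjusted p = 0.000778 by edgeR, with no overlap. Col18a1 held 67, 66.5, 62.6, 59.7 and 64.1 against 123, 138, 96.1 and 156 CPM (0.98 ± 0.20, adjusted p = 0.00117 by edgeR), also without overlap. Col8a2 held 8.1, 1.91, 3.87, 1.15 and 1.66 against 14.4, 10.4, 5.32 and 16.8 CPM (1.8 ± 0.54, adjusted p = 0.0167 by edgeR), and the first anti-PD1 tumor lay within the range of the combination. Col9a2 (1.38) and Col20a1 (0.84), both FACIT collagens, were higher and Col10a1, the collagen of hypertrophic cartilage, lower (-2.5). These last 3 lost the call under the replicate block (adjusted p = 0.0864, 0.0933 and 0.0542 by edgeR) and without combination tumor 2, each of which left Col4a1, Col8a2 and Col18a1. The block pairs tumors of different mice by number, which the labels do not. Same-numbered tumors of these 2 groups deviated with correlations of 0.439, -0.113, -0.123 and 0.0457, so a call lost under the block says little. Col10a1 held 0.318, 7.47, 2.64, 1.86 and 3.87 CPM with anti-PD1 and 0.701, 0.359, 0.389 and 0.852 with both agents. In these groups endothelial markers summed to 71.1 to 183 and 100.4 to 148 CPM (1 of 12 higher, Kdr, log2 0.52) and fibroblast markers to 136 to 340.4 and 137 to 249.6 (1 of 11 higher, Pdgfra, 1.05). The keratinocyte list summed to 334 to 480.5 and 535 to 678 CPM, without overlap, with Krt1 at 0 in both groups and Dsp higher (1 of 2 tested, 0.63). T cell markers summed to 8.02 to 23.5 and 19.1 to 41.2 CPM, with Trac at 0 and 2 of 7 tested higher (Cd4, 1.82, and Cd8a, 2.23). Of the 12 neuroendocrine markers 7 were lower and none higher (median log2 change -0.55), with sums of 3400.4 to 3804 and 2886 to 3516 CPM. Macrophage markers summed to 233 to 1119 and 566 to 1264 CPM (0 of 8 passed). Their part in the collagen differences was not tested.

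The combination against vehicle, which uses the same vehicle tumors as the BOM comparison and the same combination tumors as the anti-PD1 comparison, gave 1 higher and 2 lower collagens by edgeR, against 4.94% and 5.8% of all genes. Col4a1 was higher (0.46 ± 0.13), and Col28a1 (-2.8 ± 0.73) and Col10a1 (-3.16 ± 0.80) were lower. Here Col28a1 reached the count filter only with tumors not given BOM. None of them passed when only these 2 groups were fitted. Without vehicle tumors 1 and 2 the number was 7. The 4 added, Col16a1, Col8a2, Col9a2 and Col18a1, were highest in those 2 vehicle tumors, so their gain follows from the choice. Leaving out 1 tumor at a time gave 0 (without vehicle 4 or combination 2) to 5 (without vehicle 1). Anti-PD1 alone moved no gene of 14332 by edgeR (1411 at an unadjusted p under 0.05, of which 1 a collagen; 86 by DESeq2, no collagen). Between the combination and BOM 1 gene and no collagen passed by edgeR (1109 genes and 6 collagens at an unadjusted p under 0.05; 8 genes and no collagen by DESeq2). No gene passed the test of the difference between the BOM effects with and without anti-PD1 by edgeR (1258 genes and 2 collagens at an unadjusted p under 0.05; 6 genes and no collagen by DESeq2).

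Genes that serve collagen passed in the tumors in small numbers, which are read against the shares of all genes. Between BOM and vehicle (all genes, 5.9% higher and 8.63% lower), 1 of 20 modification genes was higher (P3h1, log2 1.11 ± 0.35) and 1 lower (the lysyl hydroxylase Plod1, -0.64 ± 0.15), and the proteinase Tll1 was the 1 lower of 11 processing genes (-2.18 ± 0.25). The collagen-binding integrin Itga11 was the 1 higher of 9 receptors (1.51 ± 0.46) and fibromodulin, Fmod, which binds type I collagen, the 1 higher of 20 other matrix genes (1.24 ± 0.41). None of the 10 degradation genes passed. Between the combination and anti-PD1 (all genes, 15.8% higher and 16.6% lower), 5 of 20 modification genes were higher, with P3h1 at 1.6 ± 0.37 and the prolyl isomerase Ppib at 0.40 ± 0.09. In that comparison Tll1 (-2.6 ± 0.25) was again lower, and Itga11 (2.6 ± 0.51), Itga2 (1.31 ± 0.45), Timp2 (0.80 ± 0.24), Lama5 (0.47 ± 0.11) and Fmod (1.42 ± 0.43) were higher.

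The BOM effects in the 10 d cultures and in the tumors were compared directly in 1 fit of both tables, an analysis added after the values were seen. The fit takes 1 spread per gene from culture libraries, whose spread may be technical, and from tumors of different mice. Its SE and p-values therefore rest on a mix of unlike spreads. Of 37 collagens tested, 5 had a higher BOM effect in culture than in tumors and none a lower one by edgeR, against 4.72% and 4.34% of all genes, with a median difference of 0.74 (all genes, -0.01). Scaling by library size alone gave 71.2% of called genes above 0 in place of 52.1%, and again 5 collagens above 0 and none below. The difference of the log2 fold changes was 4.1 ± 0.49, adjusted p = 0.000146 for Col6a1 and 3.82 ± 0.56, adjusted p = 0.000804 for Col6a2. In the tumors, Col6a1 held 44.4, 27.7, 23.8, 28.7 and 23.6 CPM with vehicle and 22, 62.6, 55.6 and 18.6 with BOM, values that overlap. The difference was 1.68 ± 0.39, adjusted p = 0.0146 for Col18a1 and 1.55 ± 0.39, adjusted p = 0.0221 for Col15a1. Col2a1 is the fifth gene called (4.63 ± 0.68, adjusted p = 0.000851). It was at most 1.38 CPM in any tumor, failed the count filter there and entered the joint fit through the BOM cultures. A BOM effect on it in the tumors was not measurable at this depth, and its difference restates the culture change. Col18a1 was higher with BOM in both settings, by 2.6 and 0.88 on the log2 scale, and its difference lost the call without the second BOM culture (adjusted p = 0.07). That of Col15a1 was lost under 4 of 21 alternatives (up to 0.145). Without vehicle tumors 1 and 2 the fit gave 9 collagens. The 4 added (Col16a1, Col8a1, Col8a2 and Col9a2) were, among the vehicle tumors, highest in those 2. The 2 tumors were singled out by values of these libraries, so the gain is no test of these genes. The difference was then below 0 for Col8a1 (-1.72), Col8a2 (-2.17) and Col9a2 (-2.99) and above 0 for Col16a1 (1.12). Culture or tumor, the table and the RNA selection cannot be told apart in this difference.

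**Figure D4:**
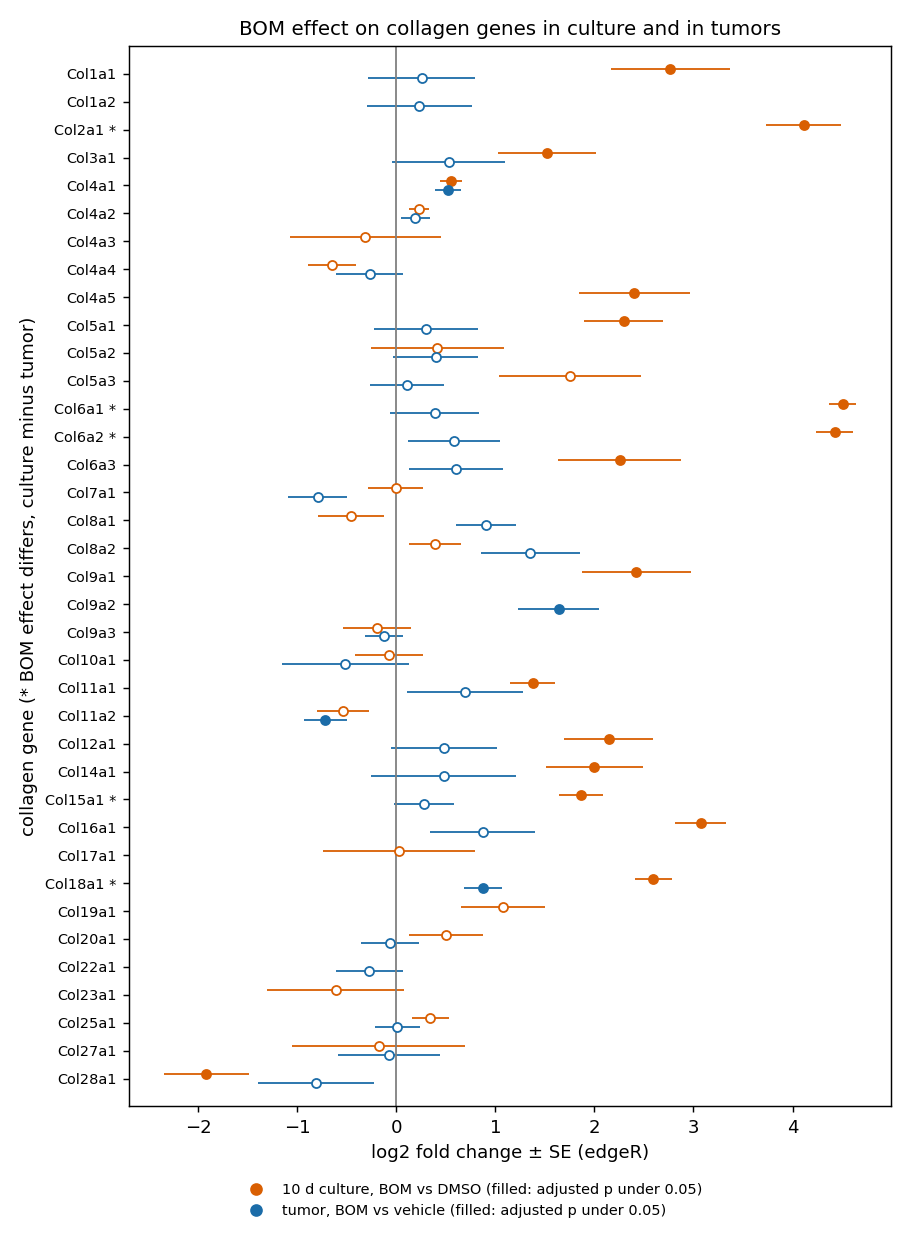
Log2 fold change with BOM (± SE) for each collagen in the 10 d cultures against DMSO and in the tumors against vehicle, filled where the adjusted p was under 0.05, with a star where the 2 effects differed in the joint fit. The stars mark Col2a1, which failed the count filter in the tumors, and Col6a1, Col6a2, Col15a1 and Col18a1.

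The ratio of paired chains, which is free of the library total, was computed per length after the values had been seen, so it is a description without a test. Its size depends on the exon bases annotated for each gene (12426 for Col1a2 and 6563 for Col1a1), so it is no ratio of molecules. Col4a1 over Col4a2 ran from 0.548 to 0.822 in the 10 libraries of the 10 d cultures, from 0.812 to 1.11 in the 6 libraries at 96 h and from 1.52 to 2.53 in the 18 tumors, so every tumor lay above every culture. Within the tumors the ratio ran from 1.55 to 1.91 with vehicle, 1.97 to 2.53 with BOM, 1.52 to 1.72 with anti-PD1 and 1.97 to 2.51 with both agents. Each BOM group lay above its control group without overlap. In the 10 d cultures it ran from 0.548 to 0.737 with DMSO and 0.777 to 0.815 with BOM, and from 0.609 to 0.807 and 0.813 to 0.822 with IFNg. At 96 h the groups overlapped, with 0.812 to 1.11 with DMSO and 1.03 to 1.08 with BOM. There the ratio was higher with BOM in RP-116 (0.880 and 1.03) and G8545 (0.812 and 1.08) and lower in RP-48 (1.11 and 1.06). The 2 genes start from the head-to-head promoters printed above. Their annotated exons overlap by 22 bases at the starts, and no strand is recorded by the library kit that the labels name. Col6a1 over Col6a2 ran from 3.75 to 7.74 in the 10 d cultures and from 1.68 to 2.37 in the tumors. Col1a1 over Col1a2 ran from 1.43 to 2.05 in the tumors.

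Among the 18 tumors Col1a1, Col1a2 and Col3a1, taken as a sum, followed the fibroblast markers, and the other fibrillar collagens were not included. The sum of Col1a1, Col1a2 and Col3a1 against the sum of the 12 fibroblast markers, which hold no collagen, gave a Pearson r of 0.942 and a Spearman rho of 0.961. Without the 2 tumors farthest from the median of the markers (anti-PD1 tumors 1 and 5) r was 0.917, and after subtraction of the group means 0.949. For the sum of Col4a1, Col4a2 and Col18a1 against the 12 endothelial markers r was 0.339 and rho 0.377, r was -0.02 without BOM tumor 3 and anti-PD1 tumor 5, and 0.652 after subtraction of the group means. Against the fibroblast markers the same sum gave r = 0.359 and rho = 0.368, with 0.313 without anti-PD1 tumors 1 and 5 and 0.582 after subtraction of the group means. These are the 3 relations computed. Both axes of each come from the same library and share its total, and the sums were chosen with the values known, so they are given without a test. The 5 anti-PD1 tumors span the widest range of type I and III collagen, with Col1a1 at 586, 97.9, 457, 137 and 69.2 CPM, whereas the 4 combination tumors held 156, 123, 112 and 175.

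**Figure D5:**
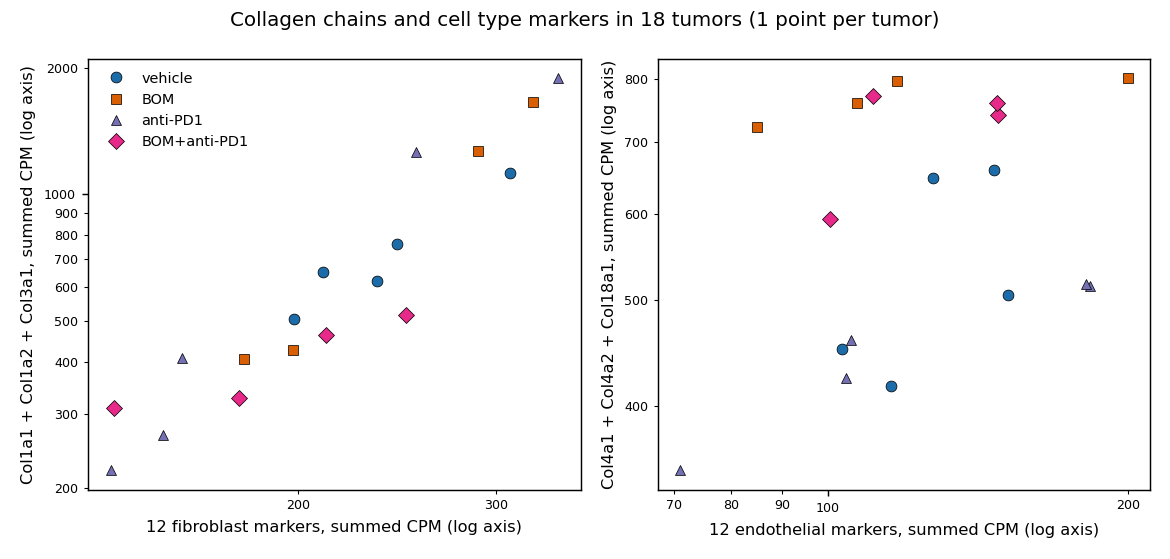
Summed CPM of Col1a1, Col1a2 and Col3a1 against 12 fibroblast markers, and of Col4a1, Col4a2 and Col18a1 against 12 endothelial markers, in the 18 tumors (log axes, points by treatment). The fibrillar sum rises along the fibroblast markers (r = 0.942), and the basement membrane sum is spread more widely along the endothelial markers (r = 0.339).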

How the data were processed

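Whole-gene read counts of 34 mouse libraries were deposited as 3 tables, and they were used as deposited. Per the submitters' processing notes the authors used bcl2fastq, FastQC 0.11.9, STAR 2.7, featureCounts of Subread 2.0 and the build mm10. The strand setting is not given in the sources used here. Collagens were found by symbol and gene type, and CPM was computed from each library's total. Per-length values divide it by the gene length in the table, which counts the annotated exon bases of the gene and is not the length of a transcript.

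Differences were tested in R 4.3.3 with edgeR 4.0.16 (quasi-likelihood test, TMM scaling, filterByExpr, Benjamini-Hochberg adjustment over all genes tested, threshold 0.05), with the cell line as a block at 96 h and over the 4 groups of the 10 d and tumor tables. DESeq2 1.42.0 and other alternatives are described in the closing section. The scripts were tested on simulated data. Correlations used SciPy 1.17.1.

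Same-numbered 10 d DMSO libraries with and without IFNg deviated together (correlations of 0.393, 0.119 and 0.133), so they were treated as pairs in an alternative fit. This pairing comes from the data, not the labels. The replicate number was also blocked in the tumors, where the labels do not pair the mice. Members named are those passing a test, the 8 highest per length in each control group and the chains of paired genes. Col5a3, Col7a1, Col22a1 and Col25a1 are named only from the untested levels of culture and tumor. They were not screened for outlying tumors. Col24a1, Col26a1 and Col27a1 appear only in class or promoter lists. Of other gene lists, up to 4 with the lowest p are named. The members and lists were chosen with earlier results of these data known.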

Additional observations from a re-analysis of the deposited data

Results flagged for a closer look

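In 13 of 129 gene and group combinations of 4 or 5 tumors, 1 tumor lay far from the others of its group. The limits used give about 1 in 20 by chance for independent, normally spread values. Col6a5, Col19a1, Col4a6, Col9a1 and Col28a1 were near 0 counts, and some flagged genes share a tumor. The 13 is therefore no measure of an excess. Combination tumor 3 was lowest in Col4a1 (368 CPM, next 425) and in Col4a2 (130.2 CPM, next 186). Vehicle tumor 1, the deepest library, was highest in Col5a2 (68.6 CPM, next 47.8), Col6a1 (44.4 CPM, next 28.7) and Col6a2 (43.3 CPM, next 27.1). Vehicle tumor 4 was highest in Col4a6 (1.38 CPM, next 0.177) and Col19a1 (0.920 CPM, next 0.152). Combination tumor 1 was highest in Col6a5 (1.12 CPM, next 0) and Col28a1 (0.982 CPM, next 0.142). Combination tumor 4 was highest in Col12a1 (17.9 CPM, next 12.5) and anti-PD1 tumor 1 in Col9a1 (0.635 CPM, next 0.176). BOM tumor 2, which also held the highest skeletal muscle markers, was highest in Col9a3 (58.3 CPM, next 46.0), and BOM tumor 3 in Col19a1 (0.272 CPM, next 0).

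The BOM effect differed between the 10 d cultures and the tumors, by the edgeR test of the difference, in Col6a1 (log2 difference 4.10), Col6a2 (3.82), Col18a1 (1.68) and Col15a1 (1.55). The same fit called Col2a1 (4.63), which failed the count filter in the tumors, so that its value restates the change in culture.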

How the results depend on the processing

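Of 295 recomputed counts of collagens, 276 stayed within 1.5 times the reported one and 19 moved. Of 1003 recomputed fold changes of single collagens, 924 kept their call, 79 lost it and none reversed. Without the count filter 5 collagens passed at 96 h, 2 for IFNg against DMSO and 1 for BOM with IFNg against BOM, where 0 were reported. For IFNg against DMSO the replicate block and a fit of only these 2 groups each gave 1. Without vehicle tumors 1 and 2 there were 7 for BOM against vehicle (4 reported), 7 for the combination against vehicle (3 reported) and 9 for the culture and tumor difference (5 reported). The replicate block gave 3 for the combination against anti-PD1 (6 reported), and a fit of only the 2 groups gave 0 for the combination against vehicle. With the 96 h cultures 3 collagens were lower in every tumor (9 reported), where 2123 of 15064 genes were, in place of 4843 of 16299. Vehicle tumors 1 and 2 were chosen by values of these libraries, so those gains are no support for the added genes. The other causes were not tested. The block moved no other count by over 1.5 times.

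Leaving out 1 library at a time gave 12 to 18 collagens for BOM at 10 d, 13 to 17 for BOM with IFNg, 0 to 1 for BOM with IFNg against BOM, 3 to 6 for BOM tumors, 3 to 6 for the combination against anti-PD1, 0 to 5 for the combination against vehicle and 4 to 7 for the joint difference. It gave 17 to 18 collagens higher and 9 to 10 lower in the tumors than in culture. The 1 for BOM with IFNg against BOM was Col2a1, without the second BOM and IFNg library. The 10 d BOM groups hold 2 libraries each, so without 1 the other is assumed to vary like the other groups. Collagens near 1 CPM rest on few counts.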
